A study of Mus musculus with 7 samples.

Results

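Imprinted genes outside the Prader-Willi region were examined in neural stem cells (NSCs), dividing precursor cells of the mouse brain, with and without *Smchd1*, which encodes a chromatin protein that keeps genes silent. The 51 genes were taken from a fixed list of well-known imprinted mouse genes, matched by symbol to 51 of the 55335 gene identifiers in the count tables, and arranged in 10 groups. Of these groups 9 follow chromosomal clusters (*Igf2/H19*, *Kcnq1*, *Igf2r*, *Dlk1/Meg3*, *Peg3*, *Peg10*, *Mest*, *Gnas* and *Grb10*) and the last one gathers 16 solo genes that lie alone or in pairs. All NSCs were of the inbred strain FVB/N and were expanded in medium with the growth factors EGF and bFGF. There were 4 wild-type (WT) samples and 3 samples with the genotype label *Smchd1*MommeD1 (*Smchd1*-null), an inherited loss-of-function allele of the gene. The ages of the donor animals and the animal behind each sample were not given in the sources used here, so p-values measure the spread between samples, which may be technical. Because the strain is inbred and counts were made per gene, each value sums the maternal and the paternal copy.

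An imprinted gene carries a chromatin and DNA methylation mark that was placed in the egg or the sperm, and as a result only the copy from one parent is transcribed. Most imprinted genes sit in clusters in which a control region methylated on a single parental copy governs several genes, often through a long non-coding RNA that silences its neighbours. Many act in growth, in the placenta and in the developing brain, where some are imprinted in neural cells alone.

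Long nanopore reads of unamplified cDNA from polyadenylated RNA were produced in 2 batches, each with its own version of the library kit. WT replicate 2 and *Smchd1*-null replicates 1 and 2 belonged to batch 1, WT replicates 3 and 4 and *Smchd1*-null replicate 3 to batch 2, and WT replicate 1 to both. Libraries held 2.74 to 7.74 M counts, and the floor of 3 counts, below which a level was not read, came to between 0.399 and 1.13 counts per M counts (CPM). CPM values here are scaled by the trimmed mean of M-values (TMM). *Smchd1* itself, whose level checks the labels, was at 66.9, 56.4, 74.7 and 55.7 CPM in WT replicates 1 to 4 and at 17.3, 12.8 and 18.4 CPM in *Smchd1*-null replicates 1 to 3 (log2 fold change, logFC, of -2.15, SE 0.18, adjusted p = 0.00011, limma). Markers of NSCs were present, all 11 with at least 22 counts in every sample, while microglial, endothelial, mesenchymal and choroid plexus markers each summed to under 10 CPM in every sample. WT replicate 4 stood apart. Its astrocyte markers summed to 180 CPM, against 43.0 to 60.0 CPM in the other samples, and its oligodendrocyte markers to 723 CPM, against 209 to 305 CPM. The genotypes were compared in 10 sample-level quantities, namely library size, genes detected and 8 summed marker lists. Adjusted p was at least 0.762 for all of them (exact permutation tests, two-sided). The smallest possible unadjusted p was 0.0286, and the lowest found was 0.143, for the mesenchymal markers. After adjustment over 10 quantities, a fully separated quantity could not have passed on its own. These tests therefore do not show that depth or cell types were balanced between genotypes. *Xist* had at most 2 counts in a sample and 4 Y-linked genes were counted in every sample. The limma fit gave each sample a weight, highest for *Smchd1*-null replicates 1 and 2 (2.03 and 1.83, against 0.447 to 1.29 in the others). These batch 1 libraries were also the most alike pair within a genotype (chi-square per degree of freedom 2.75, against 6.77 to 24.25 for other pairs). The SE and p-values of the reported fit therefore lean most on these libraries.

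Imprinted genes ranged from 0 counts in every sample to 738 CPM for *Cd81* in WT replicate 4. Of the 51 genes, 4 had 0 counts in all 7 samples, another 8 had at most 3 counts in every sample, and 9 more exceeded 3 counts in some sample but were removed by the filter on low counts. The remaining 30 were tested, of which 25 had at least 10 counts in every sample. Per kilobase of gene length the highest was *Cd81*, a tetraspanin of the cell surface, at a mean of 186 CPM per kb over the 7 samples. It was followed by the histone chaperone *Nap1l4* at 69.2 CPM per kb, the neuronal proteolipid *Nnat* at 60.5, the *Nap1l4* relative *Nap1l5* at 49.0, the retrogene *Mcts2* at 32.0 and the hydrolase *Mest* at 28.3 CPM per kb. The cDNA was not fragmented, and the paper holds that such reads carry no length bias in theory, so this ranking favours short genes. By mean CPM *Mcts2* (27.6 in WT, 31.4 in *Smchd1*-null) lay below *Mest* (114.1 and 108.7). It also lay below *Peg10* (85.5 and 72.7), *Inpp5f* (82.3 and 98.6) and *H13* (72.6 and 92.2). The sum over all 51 genes was 1706, 1830, 1746 and 2021 CPM in WT replicates 1 to 4 and 1780, 1811 and 1677 CPM in *Smchd1*-null replicates 1 to 3, so the ranges of the genotypes overlapped.

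**Figure D1:**
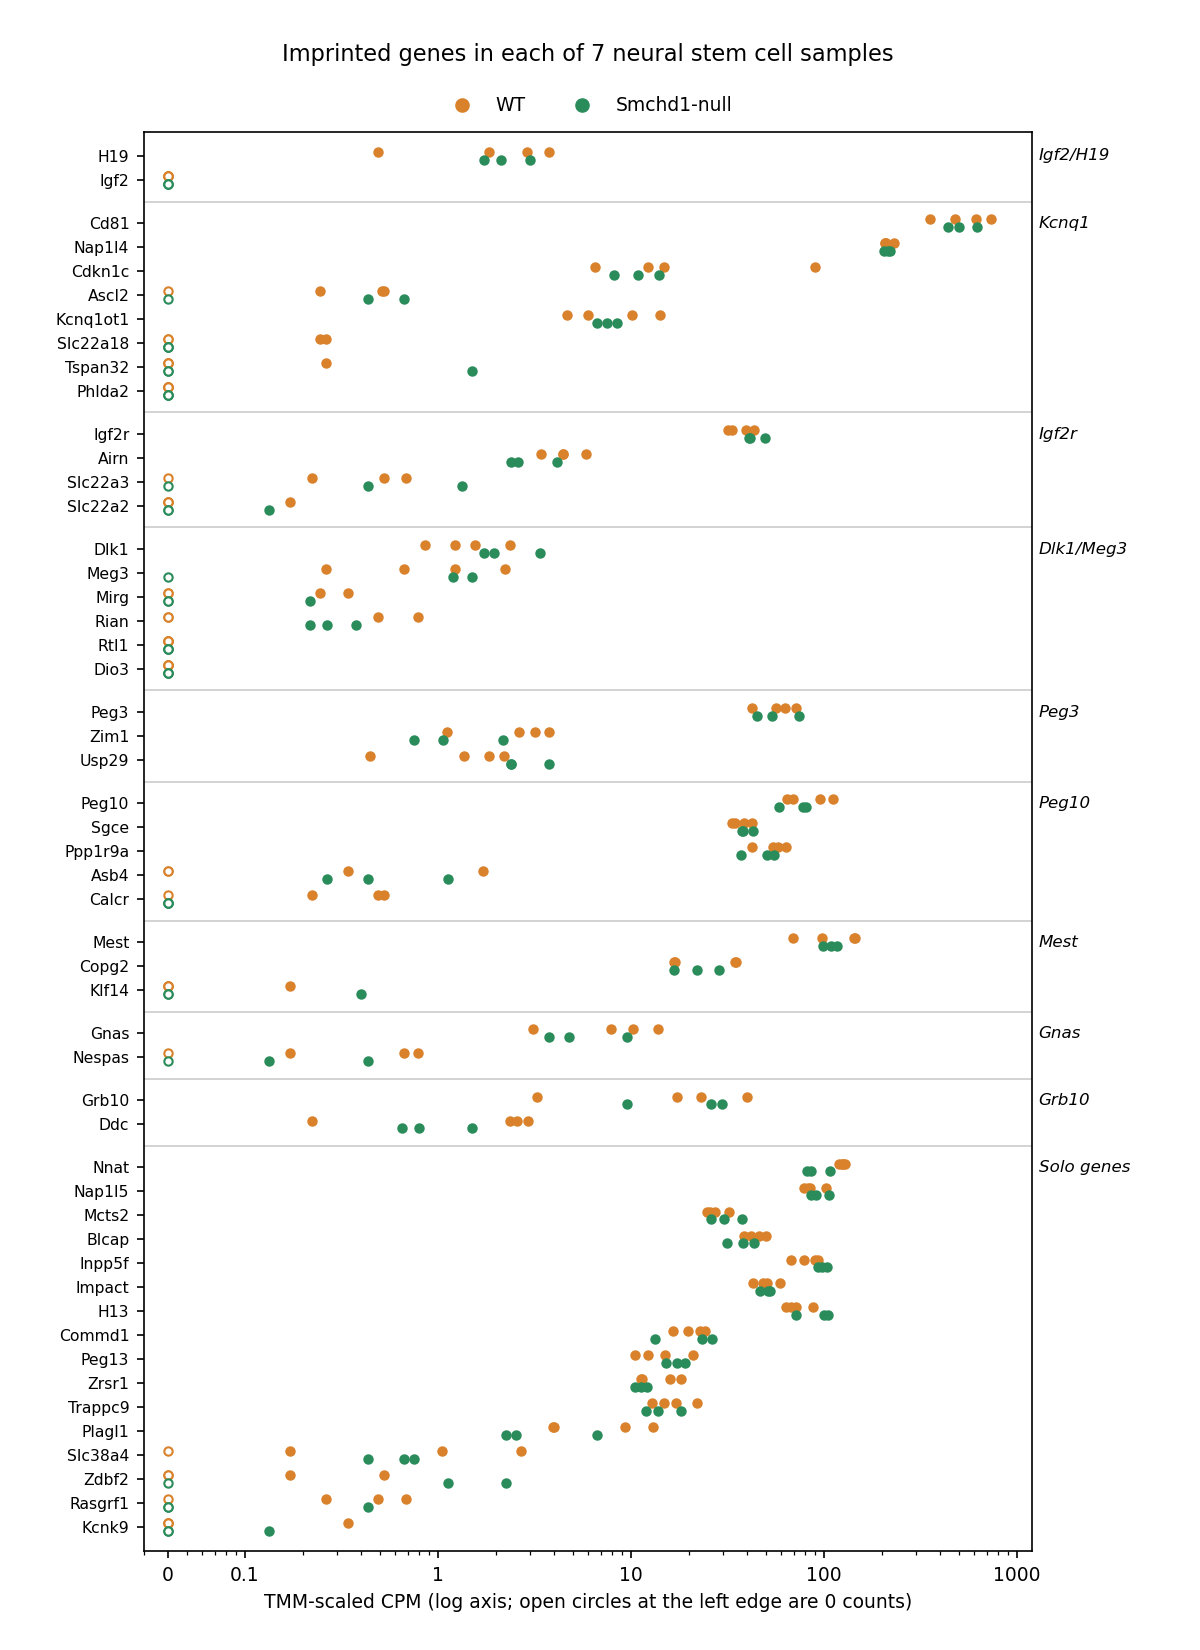
TMM-scaled CPM (log axis) of all 51 imprinted genes in each sample, WT in orange and *Smchd1*-null in green, grouped by cluster, with open circles at the left edge for 0 counts. *Cd81* holds 354 to 738 CPM, the *Dlk1/Meg3* genes lie at or below 3.38 CPM throughout, and for most genes the points of both genotypes intermingle.

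In the comparison of *Smchd1*-null with WT, which asks whether loss of *Smchd1* changes the level of these genes, no imprinted gene reached an adjusted p under 0.05 (limma, Benjamini-Hochberg over all 13305 tested genes). At that threshold 0.0902% of all tested genes were called. At the looser threshold of 0.25, at which 1.08% of all tested genes were called (0.609% lower in *Smchd1*-null), *Nnat* was the single imprinted gene called of 30. At an unadjusted p under 0.05 there were 4 imprinted genes of 30 (13.3%), *Nnat*, *Plagl1* and *Zim1* lower and *H13* higher in *Smchd1*-null, against 13.9% of all tested genes (6.74% lower and 7.11% higher), so the share was near the background in this fit. The median logFC was -0.11 over the 30 imprinted genes and 0.00 over all tested genes, with 12 positive and 18 negative values. The median absolute logFC was 0.29 for the imprinted genes and 0.21 for all tested genes. For 20 of the 30 (66.7%) the 95% confidence interval of the fold change lay within 2-fold in either direction, as it did for 77.6% of all tested genes. Between the genotypes, log-CPM ranges did not overlap for 3 of the 30, *Nnat* (lower in *Smchd1*-null), *Usp29* and *Inpp5f* (higher), beside 5.53% of all tested genes (3.01% lower and 2.52% higher).

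**Figure D2:**
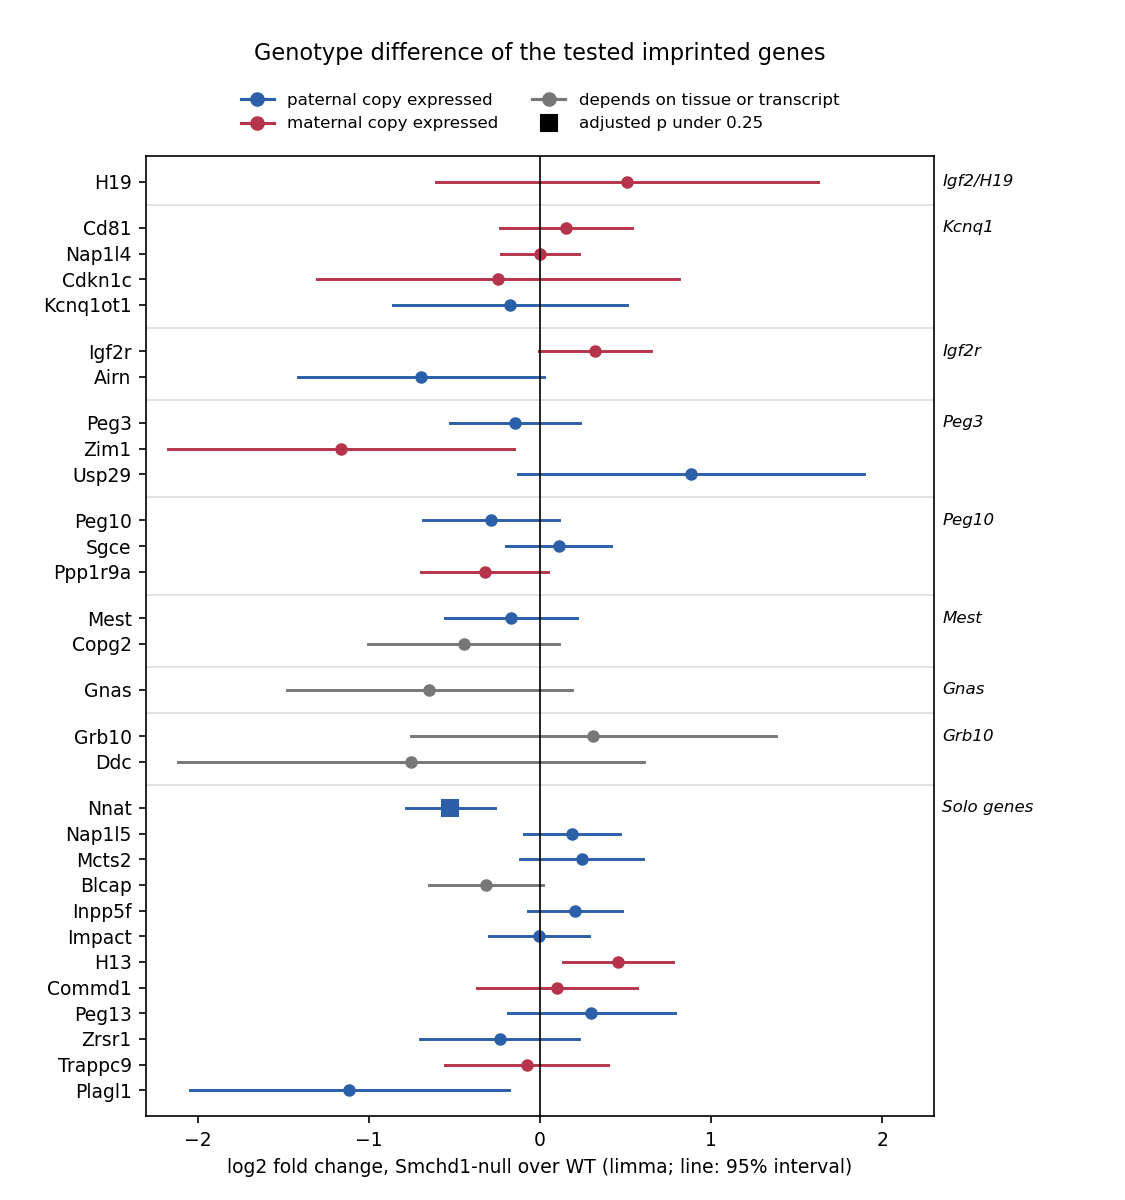
LogFC of *Smchd1*-null over WT (point) with its 95% confidence interval (line) from limma for the 30 tested imprinted genes, with a square for an adjusted p under 0.25. Colours give the parental copy listed as expressed from general knowledge, which was not measured here. *Nnat* carries the only square, and intervals for *Nnat*, *Plagl1*, *Zim1* (below 0) and *H13* (above 0) exclude 0.

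Genes were sorted by the parental copy that general knowledge gives as expressed, which can differ between tissues and was not measured in these cells. Of 23 genes listed as paternally expressed, 15 were tested, with a median logFC of -0.15. Of 23 genes listed as maternally expressed, 10 were tested, with a median of 0.05. The 5 genes listed with a copy that depends on the tissue or the transcript (*Copg2*, *Gnas*, *Blcap*, *Grb10* and *Ddc*) were all tested and had a median of -0.45. These medians describe the lists and were not tested against each other.

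The genes that passed an unadjusted p of 0.05, and the neighbours they share a locus with, are placed here, with the sequence upstream of an annotated start for 4 of them. *Nnat* (ENSMUSG00000067786.16) lies at chr2:157560078-157562522 on the plus strand of GRCm38, inside the body of *Blcap* (ENSMUSG00000067787.10), which runs from 157556362 to 157571274 on the minus strand. *H13* (ENSMUSG00000019188.16) lies at chr2:152669461-152708670 on the plus strand and holds *Mcts2* within its body, at 152687035 to 152687946 on the same strand. *Zim1* (ENSMUSG00000002266.17) lies at chr7:6671269-6696450 on the minus strand, next to *Peg3*, and *Plagl1* (ENSMUSG00000019817.18) at chr10:13060504-13131694 on the plus strand. The windows of *Plagl1* and *Mcts2* overlap exons of the genes themselves, and they and that of *Peg3* are not printed. The lines below give the upstream bases that lie in no annotated exon, 5′ to 3′ on the strand of the gene, from the RefSeq promoter table on GRCm38.p6, with each CG dinucleotide, the site of the methylation that marks imprinted copies, in capitals. They cover chr2:157560008-157560077 for *Nnat*, chr2:157566362-157566611 for *Blcap*, chr2:152669211-152669460 for *H13* and chr7:6696451-6696682 for *Zim1*. The *Blcap* stretch lies upstream of a RefSeq start inside the gene body given above, not upstream of the outer end at 157571274.
Nnat: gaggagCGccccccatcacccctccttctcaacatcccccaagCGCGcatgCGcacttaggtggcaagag
Blcap: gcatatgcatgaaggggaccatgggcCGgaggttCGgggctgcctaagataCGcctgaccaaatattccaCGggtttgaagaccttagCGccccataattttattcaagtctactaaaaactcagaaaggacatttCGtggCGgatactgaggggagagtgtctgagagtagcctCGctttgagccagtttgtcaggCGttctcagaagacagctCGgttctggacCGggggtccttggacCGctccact
H13: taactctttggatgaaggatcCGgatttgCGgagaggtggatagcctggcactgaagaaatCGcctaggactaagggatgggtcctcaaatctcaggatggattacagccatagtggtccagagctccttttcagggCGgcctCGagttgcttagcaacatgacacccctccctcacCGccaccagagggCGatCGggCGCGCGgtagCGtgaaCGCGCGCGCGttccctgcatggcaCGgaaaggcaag
Zim1: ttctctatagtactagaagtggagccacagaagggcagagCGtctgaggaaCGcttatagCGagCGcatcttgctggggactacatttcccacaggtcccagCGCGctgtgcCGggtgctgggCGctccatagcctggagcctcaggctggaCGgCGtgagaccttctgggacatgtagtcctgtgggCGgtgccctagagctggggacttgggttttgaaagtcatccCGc
They hold 4 CG in 70 bases, 12 in 250, 18 in 250 and 12 in 232, respectively. Promoter windows of 250 bases were found for 39 of the 51 genes (57 windows, some overlapping), and their median was 11 CG, against 6 over all 32851 windows. The letters TGCCGC, the core that the imprint-protecting factor ZFP57 is known to bind when methylated, occurred on either strand in 11 of the 57 windows (19.3%) and in 8.68% of all windows. These letters hold a CG themselves, and the difference in CG content between the windows was not allowed for. Overlapping windows of *Mest* were counted separately among the 11. The windows of *Zim1*, *Plagl1* and *Mcts2* were among the 11, with the match in *Zim1* reaching into exon bases that are not printed, and those of *Nnat*, *Blcap*, *H13* and *Peg3* were not. Methylation was not measured in this experiment.

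*Nnat*, a paternally expressed gene for a small proteolipid of the endoplasmic reticulum in developing neurons, was lower in *Smchd1*-null NSCs. It was at 128.7, 124.4, 125.6 and 119.5 CPM in WT replicates 1 to 4 and at 86.3, 82.1 and 107.6 CPM in *Smchd1*-null replicates 1 to 3. All *Smchd1*-null samples lay below all WT samples, and *Smchd1*-null replicate 3 lay closest to them. On average WT held 124.5 ± 3.81 CPM (SD, n = 4) and *Smchd1*-null 92.0 ± 13.7 CPM (SD, n = 3). The logFC was -0.52 (SE 0.12, 95% confidence interval -0.79 to -0.26, adjusted p = 0.181, limma), which placed *Nnat* at rank 55 of 13305 by p. Whether fewer cells expressed the gene or each cell held less of its RNA cannot be told apart in bulk samples. Within batches, mean log-CPM differed by -0.56 in batch 1 (1 WT, 2 *Smchd1*-null) and -0.19 in batch 2 (2 WT, 1 *Smchd1*-null), and with batch as a covariate the logFC was -0.43 (adjusted p = 0.199). Over the 18 alternative fits the unadjusted p was at most 0.0348 and the adjusted p ranged from 0.035 to 1.0. The call at 0.25 was lost when any of WT replicates 1, 3 and 4 or *Smchd1*-null replicates 1 and 2 was left out (adjusted p 0.595, 0.441, 0.286, 0.996 and 1.0), and kept without WT replicate 2 (0.0721) or *Smchd1*-null replicate 3 (0.035). In the fits that kept it by leaving out a sample, genotype and batch went largely together.

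*Blcap*, a gene for a small protein linked to growth arrest whose imprinting depends on the transcript, surrounds *Nnat* on the opposite strand. It was at 41.8, 38.4, 46.4 and 50.1 CPM in WT and at 38.3, 31.4 and 43.5 CPM in *Smchd1*-null, in the order of the replicates. The ranges overlapped, and the logFC of -0.31 (SE 0.16, adjusted p = 0.381) had an interval from -0.65 to 0.02. No annotated exon bases were shared between *Nnat* and *Blcap*, so reads of these genes could be assigned by exon even without strand.

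**Figure D3:**
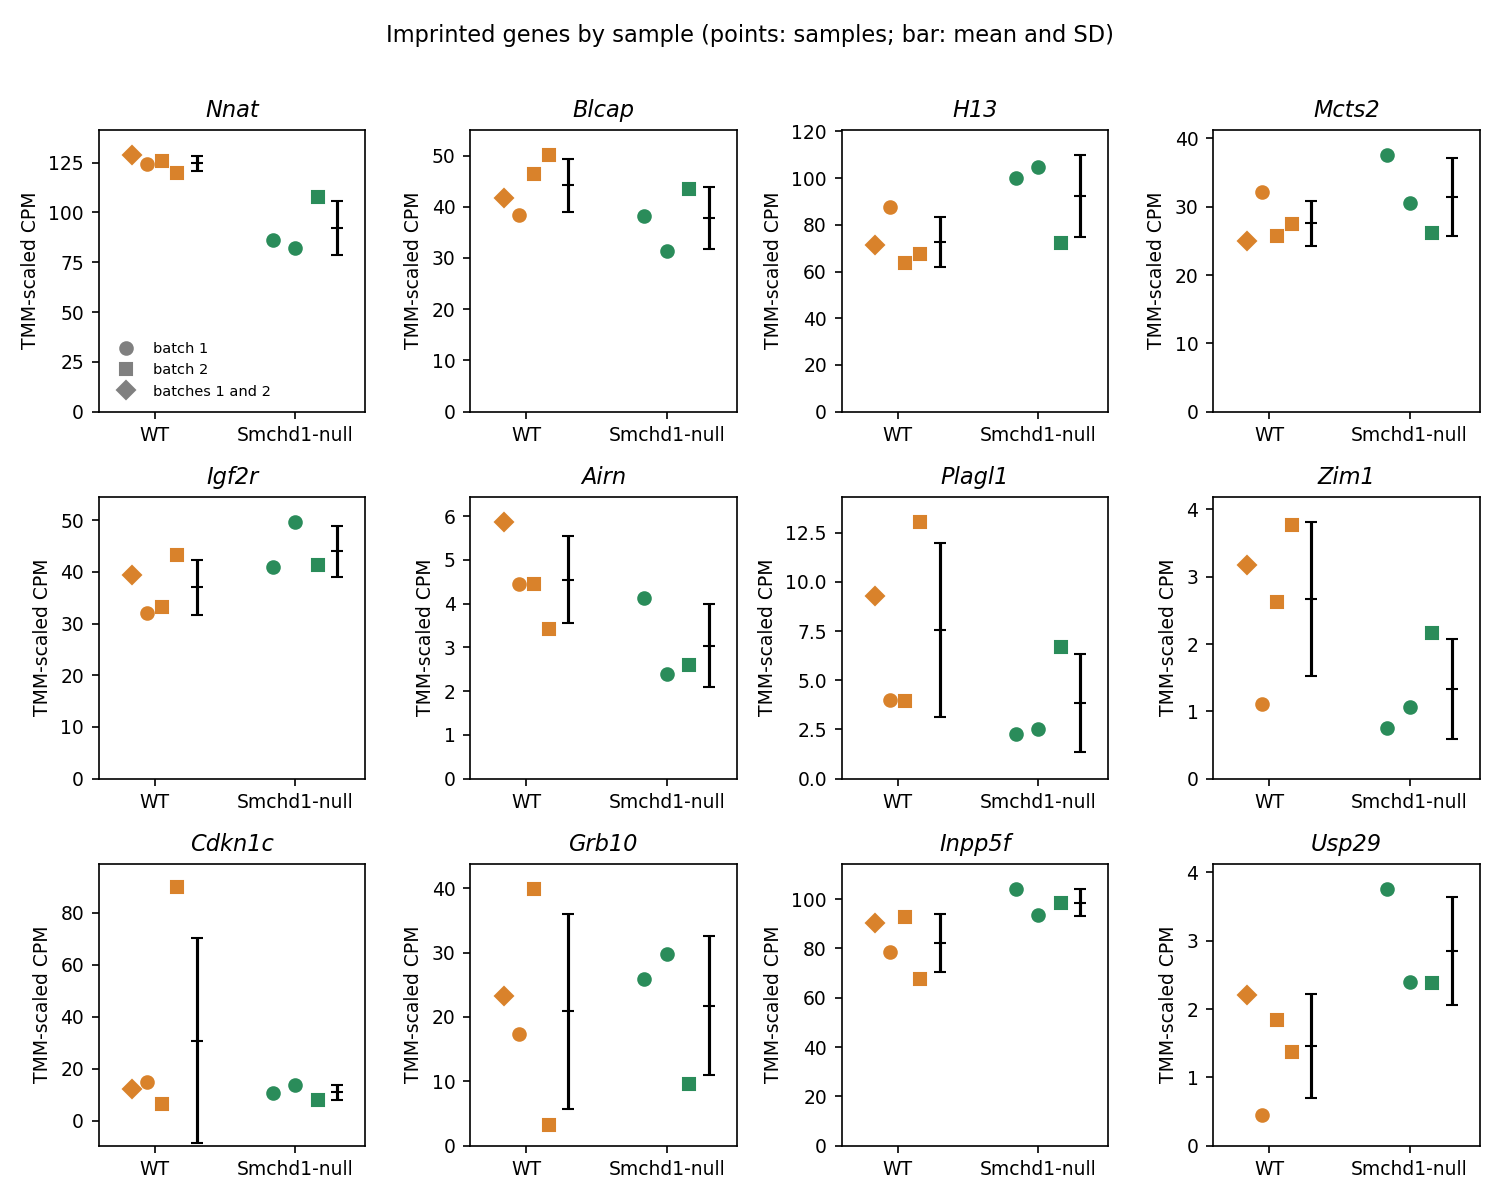
TMM-scaled CPM of 12 imprinted genes in each sample, with circles for batch 1, squares for batch 2, a diamond for the sample of both batches and bars for the mean and SD of each genotype. *Nnat* is separated between genotypes (119.5 to 128.7 against 82.1 to 107.6 CPM), *Cdkn1c* is set by 1 WT sample at 90.0 CPM, and *Smchd1*-null replicate 3 lies among or near the WT samples for *Nnat*, *H13*, *Plagl1* and *Zim1*.

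*H13* and *Mcts2* form an imprinted pair on the same strand, in which *Mcts2*, a retrogene copied from *Mcts1*, is expressed from the paternal chromosome and full-length *H13*, which encodes the signal peptide peptidase, from the maternal one. *H13* was at 71.5, 87.7, 63.7 and 67.4 CPM in WT and at 99.8, 104.7 and 72.1 CPM in *Smchd1*-null. *Smchd1*-null replicates 1 and 2 were above every WT sample and *Smchd1*-null replicate 3 was within the WT range. The logFC was 0.46 (SE 0.15, interval 0.14 to 0.77, adjusted p = 0.289) and did not pass 0.25. It was positive under each of 18 alternatives, with an adjusted p between 0.0569 and 1.0. Within batches, mean log-CPM differed by 0.22 in batch 1 and 0.14 in batch 2, and the batch covariate gave 0.21 (adjusted p = 0.635).

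*Mcts2* was at 24.9, 32.2, 25.7 and 27.4 CPM in WT and at 37.5, 30.5 and 26.2 CPM in *Smchd1*-null. The logFC of 0.24 (SE 0.17, adjusted p = 0.506) had the sign of the *H13* value, though the paired genes are expressed from opposite parental copies. The longest transcripts of *Mcts2* and *Mcts1* were 83.4% identical over 682 aligned columns, so a read of the parent gene could be placed on the retrogene and its count is uncertain.

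*Plagl1*, a paternally expressed zinc-finger transcription factor that restrains growth, was at 9.28, 4.00, 3.93 and 13.03 CPM in WT and at 2.25, 2.53 and 6.71 CPM in *Smchd1*-null. WT replicates 2 and 3 lay below *Smchd1*-null replicate 3, so the ranges overlapped. The logFC was -1.11 (SE 0.44, interval -2.05 to -0.18, adjusted p = 0.321), and with batch as a covariate it was -0.42 (adjusted p = 0.824). Within batches the differences in mean log-CPM were -0.65 and -0.10. Without *Smchd1*-null replicate 2 the logFC was -0.47 (adjusted p = 1.0).

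The *Peg3* cluster holds paternally expressed zinc-finger and deubiquitinase genes next to the maternally expressed *Zim1*. *Peg3*, a large zinc-finger protein that acts in maternal behaviour and growth, was at 63.3, 42.6, 56.9 and 72.2 CPM in WT and at 53.7, 45.3 and 74.0 CPM in *Smchd1*-null. The logFC was -0.15 (SE 0.18, adjusted p = 0.71), and its interval ran from -0.53 to 0.23. Within batches 1 and 2 the differences in mean log-CPM had the other sign, at 0.21 and 0.21. *Zim1*, a zinc-finger gene, was low, at 3.17, 1.11, 2.62 and 3.77 CPM in WT and at 0.751, 1.06 and 2.165 CPM in *Smchd1*-null, which are 2 to 22 counts. Its ranges overlapped through WT replicate 2. The logFC was -1.16 (SE 0.47, interval -2.172 to -0.15, adjusted p = 0.323), and within batches the differences were -0.21 and -0.47. Without *Smchd1*-null replicate 2 it was -0.72 (adjusted p = 1.0) and with the batch covariate -0.47 (adjusted p = 0.816).

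*Usp29*, a ubiquitin protease gene that shares its start region with *Peg3*, was at 2.20, 0.444, 1.83 and 1.37 CPM in WT and at 3.75, 2.40 and 2.38 CPM in *Smchd1*-null. Every *Smchd1*-null sample was above every WT sample, at 2 to 18 counts, and the logFC of 0.88 (SE 0.47, interval -0.13 to 1.89, adjusted p = 0.407) did not pass the test. Exons of *Usp29* share 2582 bases with *Zim3* on the opposite strand, and strand was not stated to be used in the counting. *Inpp5f*, an inositol phosphatase gene with an imprinted brain transcript among others that are not imprinted, likewise showed no overlap, at 90.4, 78.6, 92.8 and 67.4 CPM in WT and 104.0, 93.4 and 98.3 CPM in *Smchd1*-null. Its logFC was 0.20 (SE 0.13, adjusted p = 0.466), within an interval from -0.07 to 0.48.

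*Igf2r* and *Airn* are a classic pair. *Airn* is a paternally expressed long non-coding RNA that starts within *Igf2r* on the opposite strand and silences it in *cis*, while in neurons *Igf2r*, the receptor that clears insulin-like growth factor 2, is known to escape imprinting. *Igf2r* was at 39.3, 32.0, 33.3 and 43.4 CPM in WT and at 40.9, 49.6 and 41.4 CPM in *Smchd1*-null. *Airn* was at 5.86, 4.44, 4.46 and 3.43 CPM in WT and at 4.13, 2.40 and 2.60 CPM in *Smchd1*-null. The ranges of both genes overlapped. The logFC was 0.32 for *Igf2r* (SE 0.15, interval -0.01 to 0.65, adjusted p = 0.371) and -0.69 for *Airn* (SE 0.34, interval -1.41 to 0.03, adjusted p = 0.376). Both kept their sign in all 18 alternatives, and the within-batch differences were 0.49 and 0.12 for *Igf2r* and -0.44 and -0.52 for *Airn*. No exon bases of *Airn* and *Igf2r* are shared. The organic cation transporter genes *Slc22a2* (at most 1 count) and *Slc22a3* (0 to 10 counts) of this cluster were too low to test.

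In the *Kcnq1* cluster the paternally expressed antisense RNA *Kcnq1ot1* silences a row of maternally expressed genes. The imprinting of these genes, *Cd81* and *Nap1l4* among them, can differ between tissues and was not measured in these cells. *Kcnq1ot1* was at 14.2, 4.66, 6.03 and 10.1 CPM in WT and at 7.51, 6.65 and 8.44 CPM in *Smchd1*-null, all of the latter inside the WT range. *Cdkn1c*, the cell cycle inhibitor p57, was at 12.2, 14.9 and 6.55 CPM in WT replicates 1 to 3 and at 90.0 CPM in WT replicate 4, against 10.9, 14.0 and 8.23 CPM in *Smchd1*-null. One library therefore set the WT mean of *Cdkn1c*. WT replicate 4 is also the library with the raised astrocyte and oligodendrocyte markers, and their part in this value was not tested. The logFC of *Cdkn1c* was -0.24 (SE 0.49, adjusted p = 0.839) and 0.25 without WT replicate 4. An antisense gene shares 625 exon bases with *Cdkn1c*, so its counts are uncertain. *Kcnq1ot1* had a logFC of -0.17 (SE 0.32, adjusted p = 0.817), while its mean log-CPM differed by 0.56 in batch 1 and 0.10 in batch 2, the other sign.

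*Cd81* was at 354, 616, 476 and 738 CPM in WT and at 500.0, 620 and 440 CPM in *Smchd1*-null, a logFC of 0.15 (SE 0.18, adjusted p = 0.71) between overlapping groups. Its mean log-CPM differed the other way within batches, by -0.14 in batch 1 and -0.43 in batch 2. *Nap1l4* varied little, at 208.3, 229.9, 211.1 and 208.9 CPM in WT and 206.4, 219.9 and 214.1 CPM in *Smchd1*-null. Its logFC was 0.00 in size, with an interval from -0.23 to 0.23. The other genes of the cluster were near or below the floor. The placental growth gene *Phlda2* had 0 counts in every sample, the transporter *Slc22a18* at most 1, the transcription factor gene *Ascl2* at most 5 and the tetraspanin *Tspan32* at most 4.

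The insulin-like growth factor locus pairs *H19*, a maternally expressed non-coding RNA, with the paternally expressed growth factor *Igf2*. *H19* was at 0.488, 2.89, 1.84 and 3.77 CPM in WT and at 3.00, 2.13 and 1.73 CPM in *Smchd1*-null, which are 2 to 22 counts. On average WT held 2.25 ± 1.41 CPM (SD, n = 4) and *Smchd1*-null 2.29 ± 0.65 CPM (SD, n = 3). The weighted fit on the log scale gave 0.51 (SE 0.52, adjusted p = 0.66), and edgeR gave -0.07. Mean log-CPM differed by -0.16 in batch 1 and -0.51 in batch 2, so no direction was set. *Igf2* had 0 counts in all samples. In the annotation 62.8% of the exon bases of *Igf2* belong also to a second gene on the same strand, *Gm49394*, and all 9 *Igf2* transcripts share bases with it. How a read that falls in 2 genes at once was counted was not stated, and *Gm49394* itself had 0 counts, so the absence of *Igf2* counts does not show that the gene was silent.

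The same limit touches *Gnas*, which encodes a stimulatory G protein subunit and produces several transcripts from different parental copies. It was at 10.3, 3.11, 7.87 and 13.9 CPM in WT and at 3.75, 4.79 and 9.53 CPM in *Smchd1*-null, 10 to 81 counts. Of its 24 annotated transcripts 21 share exon bases with *Gm20721* on the opposite strand, 9 of them over more than 50% of their length, and *Gm20721* had 0 counts. The logFC of *Gnas* was -0.65 (SE 0.39, interval -1.48 to 0.19, adjusted p = 0.448), with differences of 0.40 in batch 1 and -0.13 in batch 2, so the batches went opposite ways. Its antisense RNA *Nespas* had 0, 3, 3 and 1 counts in WT and 0, 1 and 2 in *Smchd1*-null and was not tested.

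No gene of the *Dlk1/Meg3* cluster was tested. *Dlk1*, a paternally expressed membrane ligand related to Notch ligands, was its most abundant member per kilobase, at 1.22, 1.55, 2.36 and 0.857 CPM in WT and at 3.38, 1.73 and 1.95 CPM in *Smchd1*-null, 5 to 13 counts. *Meg3*, its maternally expressed non-coding partner, was at 1.22, 0.666, 0.262 and 2.23 CPM in WT and at 1.501, 1.20 and 0 CPM in *Smchd1*-null. The ranges overlapped for both. The small RNA hosts *Rian* and *Mirg* had at most 3 and 2 counts in a sample, and the retrotransposon-derived *Rtl1* and the deiodinase *Dio3* had 0 counts in every sample.

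The *Peg10*, *Mest* and *Grb10* clusters held well-expressed genes without a called change. *Peg10*, a retrotransposon-derived gene needed in the placenta, was at 112.1, 95.7, 69.2 and 64.8 CPM in WT and at 80.7, 59.0 and 78.4 CPM in *Smchd1*-null (logFC -0.29, SE 0.19, adjusted p = 0.477). Its neighbours *Sgce*, a sarcoglycan, and *Ppp1r9a*, which encodes the actin-binding neurabin, had logFC values of 0.11 (SE 0.14) and -0.32 (SE 0.17). *Asb4* and *Calcr*, genes for a ubiquitin ligase adaptor and the calcitonin receptor, had at most 7 and 2 counts.

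*Mest* was at 144.8, 98.4, 143.4 and 69.6 CPM in WT and at 117.5, 99.2 and 109.5 CPM in *Smchd1*-null. The *Smchd1*-null samples lay inside the WT range, and the logFC was -0.17 (SE 0.18, adjusted p = 0.669). Differences in mean log-CPM within batches 1 and 2 went the other way, at 0.13 and 0.13. *Copg2*, a coat protein gene whose end overlaps that of *Mest* by 912 exon bases on the opposite strand, had a logFC of -0.45 (SE 0.26, adjusted p = 0.436). For *Copg2* too the within-batch differences had the other sign, at 0.21 and 0.24. *Klf14*, a transcription factor gene, had at most 3 counts.

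*Grb10*, an adaptor that dampens insulin and growth factor signalling and is expressed from the paternal copy in neurons and the maternal copy elsewhere, varied widely within WT. It was at 23.2, 17.3, 39.9 and 3.26 CPM in WT and at 25.9, 29.8 and 9.53 CPM in *Smchd1*-null. WT replicate 4 was the lowest and *Smchd1*-null replicate 3 the next. The logFC of 0.31 (SE 0.50) had an interval from -0.75 to 1.38 and was -0.15 without WT replicate 4. The neighbouring dopa decarboxylase gene *Ddc*, imprinted in the heart, had 1 to 15 counts and a logFC of -0.75 (SE 0.64).

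Of the other solo genes, *Nap1l5* (0.19), *Peg13* (0.30), *Commd1* (0.10), *Impact* (0.00), *Trappc9* (-0.08) and *Zrsr1* (-0.24) were tested, with the logFC given in brackets and adjusted p-values between 0.512 and 0.992. *Impact*, a regulator of the stress kinase GCN2, had an interval from -0.30 to 0.29. The genes *Zrsr1*, a splicing factor retrogene, and *Commd1*, a copper-handling gene in whose intron it lies, share 412 exon bases on opposite strands. The paternally expressed non-coding *Peg13* lies within *Trappc9*, a trafficking gene, and its neighbour *Kcnk9*, a potassium channel, had at most 2 counts. *Zdbf2* had 0, 0, 2 and 1 counts in WT and 3, 17 and 0 in *Smchd1*-null, *Slc38a4*, an amino acid transporter, 0 to 11 counts and *Rasgrf1*, an exchange factor for Ras, at most 4.

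Gene length was compared because fold changes in these libraries moved with it. Over all 13305 tested genes length and logFC had a Spearman correlation of -0.38, a description across genes of the same libraries, and over the 30 imprinted genes it was 0.06. *Nnat*, at 1829 bases, was shorter than the median tested gene (4160 bases), so its negative value went against the trend, and with the trend removed its logFC was -0.61 (adjusted p = 0.176). With the trend removed, 8 of 30 imprinted genes had an unadjusted p under 0.05 (26.7%), against 10.02% of all tested genes.

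**Figure D4:**
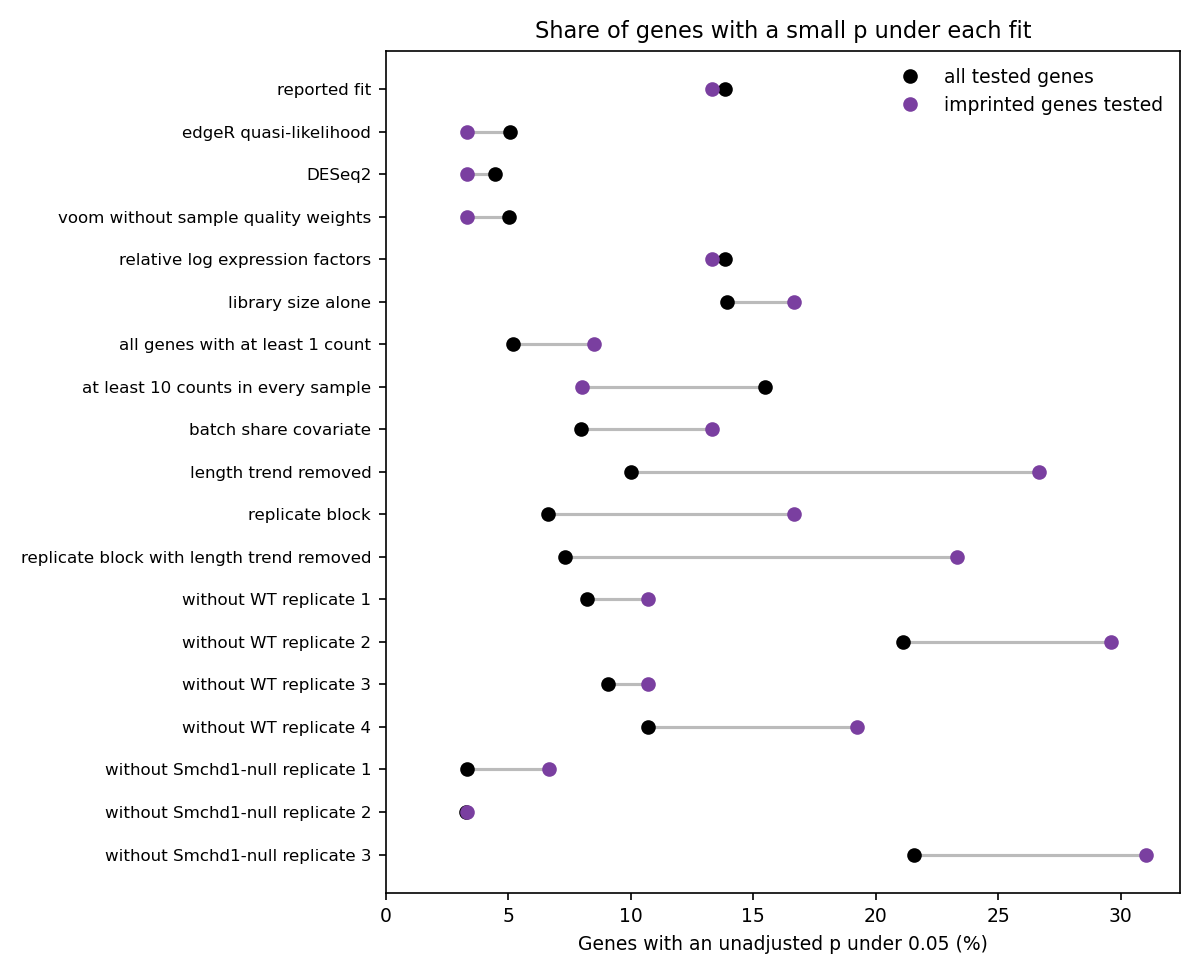
Percent of the tested imprinted genes (purple) and of all tested genes (black) with an unadjusted p under 0.05 in the reported fit and under each of 18 alternatives. The imprinted genes lie near all genes in the reported fit (13.3% against 13.9%), above them with the length trend removed (26.7% against 10.02%) or the replicate block (16.7% against 6.64%), and below them with at least 10 counts in every sample (8.0% against 15.5%). In the replicate block WT replicate 4 has no *Smchd1*-null sample of its number.

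The counts of called imprinted genes followed the libraries used. At an adjusted p under 0.25 there were 8 of 27 tested without WT replicate 2 and 10 of 29 tested without *Smchd1*-null replicate 3. There were none when any of the other 5 libraries was left out. The number of all genes called moved in the same fits from 144 of 13305 to 2924 of 12891 and 3153 of 13395, and to between 1 and 43. Without *Smchd1*-null replicate 3 all remaining *Smchd1*-null samples were of batch 1, and without WT replicate 2 no WT sample was of batch 1 alone. Genotype and batch thus went largely together in these fits, and their parts in the calls could not be told apart. The 10 imprinted genes without *Smchd1*-null replicate 3 were *Nnat*, *H13*, *Plagl1*, *Zim1*, *Blcap*, *Ppp1r9a*, *Copg2*, *Gnas*, *Igf2r* and *Airn*, and 8 of these were also called without WT replicate 2. By edgeR and DESeq2 no imprinted gene reached 0.25, and *Nnat* alone had an unadjusted p under 0.05.

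Factors that place or keep imprints were measured as a list of 19, of which 16 were tested and none was called at 0.25. The zinc-finger protein genes *Zfp57* and *Zfp445*, whose products hold methylation at imprinted control regions, had logFC values of -0.06 (SE 0.18) and -0.33 (SE 0.14, unadjusted p = 0.0366, adjusted p = 0.339). *Zfp445* was the only one of the 16 (6.25%) with an unadjusted p under 0.05, against 13.9% of all tested genes, and its levels overlapped, at 84.3, 60.4, 71.6 and 79.2 CPM in WT and 52.5, 60.7 and 68.8 CPM in *Smchd1*-null. *Dnmt3b*, a DNA methyltransferase, was next by p, at -0.64 (SE 0.33, adjusted p = 0.387).

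Genes of the insulin-like growth factor pathway, on which *Igf2*, *Igf2r*, *H19* and *Grb10* act, were tested for 11 of 17. *Igfbp4*, a secreted binding protein, was called at 0.25 (logFC -1.30, SE 0.29, adjusted p = 0.176). It was at 154.3, 216.3, 85.7 and 341.8 CPM in WT and at 50.7, 65.1 and 68.4 CPM in *Smchd1*-null, without overlap, and its adjusted p ranged from 0.00253 to 1.0 over the alternatives. Of the 11, 5 had an unadjusted p under 0.05 and all 5 were lower in *Smchd1*-null, namely *Igfbp4*, *Igf2bp2*, *Igf2bp3*, *Irs1* and *Igf1r*, beside 6.74% of all tested genes that were lower at that threshold. This count was 1 without WT replicate 1 and 1 without *Smchd1*-null replicate 2, 3 without WT replicate 3 or *Smchd1*-null replicate 1, 2 by DESeq2 or with the length trend removed, and 3 by edgeR, with the batch covariate or with the replicate block. Ranges of *Igf2bp2* and *Igf2bp3* did not overlap between genotypes, while those of *Irs1* and *Igf1r* did. For *Irs1*, *Smchd1*-null replicate 3 was the highest sample, at 11.9 CPM against at most 11.8 CPM in WT. *Igfbp4* was not called by edgeR (adjusted p = 0.39). Among the NSC markers, *Hes5*, *Msi1*, *Egfr* and *Fabp7* likewise had an unadjusted p under 0.05 and lower levels in *Smchd1*-null, and their part in the values of the pathway was not tested. The NSC markers did not move together: of all 11, 4 had a positive and 7 a negative logFC, with a median of -0.09.

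Protein-coding neighbours within 250000 bases of an imprinted gene numbered 150, of which 68 were tested. *Rgs10*, a regulator of G protein signalling near *Inpp5f*, was the one called at 0.25, a threshold that 1.08% of all tested genes passed (logFC 0.83, SE 0.22, adjusted p = 0.233), at 16.6, 35.3, 22.6 and 24.9 CPM in WT and 51.05, 38.1 and 30.1 CPM in *Smchd1*-null. *Smchd1*-null replicate 3 lay below WT replicate 2. The call rested on the fit: the adjusted p was 0.561 with the batch covariate, 0.689 with the replicate block and 0.858 by edgeR, with a range from 0.0532 to 1.0 over the alternatives, and it was kept without WT replicate 2 or *Smchd1*-null replicate 3 and lost without any other single sample. Of the 68, 6 (8.82%) had an unadjusted p under 0.05, against 13.9% of all tested genes, and the median logFC of the 68 was 0.04.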

How the data were processed

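Counts for 4 WT and 3 *Smchd1*-null samples were used as deposited: 1 whole-number count per gene, not normalised. The authors called bases with Guppy, aligned reads to mm10 with minimap2 2.17, used featureCounts in long-read mode on Gencode M23 to count primary alignments, and summed the reads of a sample sequenced in both batches. Symbols, coordinates and exon overlaps came from Gencode M21 on GRCm38 (version ignored, 55154 of 55335 identifiers matched), and promoter sequences from RefSeq GRCm38.p6. After filterByExpr and TMM, 13305 genes were fitted with limma's voomWithQualityWeights on genotype, two-sided, with Benjamini-Hochberg adjustment over all of them, following the study's methods. CPM are TMM-scaled, and log-CPM used a prior count of 2. The pipeline was tested on simulated data. Alternatives were edgeR, DESeq2, unweighted voom, other scaling and filters, batch, length trend, replicate block and each sample left out. The imprinted genes, the further lists (imprint factors, insulin-like growth factor pathway, neighbours within 250000 bases, cell type and sex markers) and the naming rule (unadjusted p under 0.05, the most abundant gene per kilobase of each group, and oppositely imprinted pairs) were chosen with earlier results of these data known. *Smchd1*, *Blcap*, *Mcts2*, *Nap1l4*, *Usp29*, *Inpp5f* and *Zdbf2* were given in every sample after their values were seen. The result of 1 NSC marker is not reported here. Software was R 4.3.3, limma 3.58.1, edgeR 4.0.16 and DESeq2 1.42.0.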

Additional observations from a re-analysis of the deposited data

Results flagged for a closer look

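Among 40 groups of 4 WT values examined (the 30 tested imprinted genes and 10 sample-level quantities), 3 held a sample whose gap to the nearest other was larger than Dixon's 95% critical value for its group, where chance gives about 1 in 20. For *Nap1l4* it was WT replicate 2, at a log-CPM of 7.85 against 7.71 to 7.72 in the other WT samples, a difference that is small in size. For *Ddc* it was again WT replicate 2, at -0.63 against 1.48 to 1.75, which rests on 1 count. For the summed astrocyte markers it was WT replicate 4, at 180 CPM against 43.0 to 54.9.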

How the results depend on the processing

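Of the 30 tested imprinted genes, 18 kept the sign of their fold change in every one of 18 alternatives in which they could be fitted and 12 did not. The causes were not tested. At an adjusted p under 0.25, none was called by edgeR, DESeq2, unweighted voom or with all genes of at least 1 count (8, 32, 10 and 22 of all genes), and 2 (*Nnat* and *H13*) with at least 10 counts in every sample (346 of all genes). The batch covariate gave 74 and the length correction 65 of all genes. At an unadjusted p under 0.05 there was 1 imprinted gene (3.33%) by edgeR, DESeq2 and unweighted voom (5.07%, 4.46% and 5.03% of all genes), 2 (8.0%) where each sample held at least 10 counts (15.5%), 8 (26.7%) with the length trend removed (10.02%) and 7 (23.3%) with this and the replicate block (7.33%), so the share lay below, above or near that of all genes depending on the fit. Without *Smchd1*-null replicate 3 the count at an adjusted p under 0.05 was 1 (*Nnat*), in a fit where all *Smchd1*-null samples were of batch 1. Leaving out 1 sample at a time gave 0 to 1 imprinted genes at an adjusted p under 0.05, 0 to 10 at 0.25, 1 to 9 at an unadjusted p under 0.05, and 1 to 3153 of all genes at 0.25.

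Same-numbered samples of both genotypes had correlations of their deviations of -0.04, 0.36 and 0.09, so the numbers were not taken to pair the samples. With the replicate number as a block, 1 imprinted gene (*Nnat*) was called at 0.25 and 5 had an unadjusted p under 0.05 (16.7%, against 6.64% of all genes), with 129 of all genes called at 0.25, and *Smchd1*-null replicate 1 correlated best with WT replicate 2 (0.30), not with its own number. WT replicate 4 has no *Smchd1*-null sample of its number, so under the block it did not enter the genotype difference. Samples numbered 2 were both of batch 1 and those numbered 3 both of batch 2, so the block partly followed batch. The block reversed *Kcnq1ot1* (0.15), *Peg3* (0.13), *Gnas* (0.087), *Grb10* (-0.14), *Commd1* (-0.11) and *Impact* (0.10). The block with the length trend removed reversed *Kcnq1ot1* (0.24), *Peg3* (0.17), *Gnas* (0.12), *Commd1* (-0.028) and *Impact* (0.13).

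The batch covariate reversed *Kcnq1ot1* (0.20), *Cd81* (-0.10), *Peg3* (0.17), *Copg2* (0.0095), *Gnas* (0.055), *Commd1* (-0.11) and *Impact* (0.10), and the length correction *Kcnq1ot1* (0.16), *Peg3* (0.045) and *Impact* (0.048). The values of *H19*, *Cd81* and *Commd1* reversed by edgeR (-0.068, -0.0696, -0.0022) and DESeq2 (-0.031, -0.0703, -0.0032), and those of *Cd81* and *Commd1* by unweighted voom (-0.031, -0.0496). With all genes of at least 1 count *Commd1* (-0.0215) and *Impact* (0.0132) reversed. With 1 sample left out, log2 fold changes ran from -0.13 to 0.60 for *H19*, -0.36 to 0.15 for *Kcnq1ot1*, -0.80 to 0.25 for *Cdkn1c*, -0.077 to 0.24 for *Cd81*, -0.029 to 0.027 for *Nap1l4*, -0.28 to 0.15 for *Peg3*, -0.42 to 0.86 for *Grb10*, -0.23 to 0.21 for *Commd1*, -0.053 to 0.071 for *Impact* and -0.32 to 0.034 for *Trappc9*. None of the reversed values, and none of their reported counterparts, had an adjusted p under 0.25. Of the 21 imprinted genes below the filter, 17 could be fitted with all genes of at least 1 count. Of these, 1 had an unadjusted p under 0.05 by limma, *Calcr* (adjusted p = 0.767). It had at most 2 counts in a WT sample and 0 in each *Smchd1*-null sample, all under the floor of 3 counts.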
